A study of Mus musculus with 56 samples.

Results

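The myostatin and activin pathway genes examined here are Mstn, Gdf11, Fst, Fstl1, Fstl3, Acvr2a, Acvr2b, Smad7 and Mss51. They were chosen by symbol, through the Entrez gene identifier of each row, and are 9 of the 19072 genes in the expression table. The measured tissue was the gastrocnemius, which in mice consists largely of fast-twitch fibres. The tissue came from female C57BL/6J mice that were 9 weeks old and lived in 12 h of light followed by 12 h of darkness. After 7 days of free access to chow, mice were fed for 7 days either in the light phase alone (daytime-restricted feeding, DRF) or in the dark phase alone (nighttime-restricted feeding, NRF, the reference). Each regimen was sampled at zeitgeber time (ZT, hours after lights on) 0, 4, 8, 12, 16, 20 and 24, with 4 libraries at each time. No group was fed freely or fasted throughout, so every comparison lies between restricted regimens or between times.

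Myostatin, its close relative Gdf11 and the activins are secreted ligands of the transforming growth factor beta family that restrain muscle mass. They bind the type II receptors Acvr2b and Acvr2a, which recruit a type I receptor such as Acvr1b, and the complex phosphorylates Smad2 and Smad3. Follistatin (Fst) and the related protein Fstl3 bind these ligands outside the cell and block them, and Smad7 is an inhibitory Smad that is itself switched on by the pathway. Food intake, glucocorticoids and the muscle clock are all known to act on muscle growth signals, which is the setting of a comparison between inverted feeding times.

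On GRCm38.p6, as listed by RefSeq, Mstn (17700) lies on chromosome 1 from 53061640 to 53068079 and Gdf11 (14561) on chromosome 10 from 128880524 to 128891718. Fst (14313) lies on chromosome 13 from 114452262 to 114458989. Fstl1 (14314) lies on chromosome 16 from 37777055 to 37836516, and Fstl3 (83554) on chromosome 10 from 79777274 to 79782630. Acvr2a (11480) lies on chromosome 2 from 48814109 to 48903264 and Acvr2b (11481) on chromosome 9 from 119401583 to 119442148. Mss51 (74843) lies on chromosome 14 from 20482857 to 20496901. In that annotation Fst, Fstl1, Fstl3, Acvr2a and Smad7 each overlap 1 other gene. No strand-marking step is described for the libraries, so reads from overlapping genes cannot be told apart. Recovered counts were whole numbers for 7 of the genes and decimal for Fstl3 and Acvr2a, as estimated counts of shared reads are, so the levels of those 2 are less certain.

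The 250 bases before the transcription start of the RefSeq transcript are shown, on GRCm38.p6, for 4 genes: Mstn and Gdf11, whose levels moved together between libraries, and Fstl3 and Acvr2b, whose levels moved in opposite directions. The Acvr2b window lies before the start of 1 transcript that begins inside the gene span given above, so it is not upstream of the whole gene. Matches to the motifs searched are in capitals, and the remaining bases are in lower case.
Mstn, chr1:53061390-53061639, plus strand: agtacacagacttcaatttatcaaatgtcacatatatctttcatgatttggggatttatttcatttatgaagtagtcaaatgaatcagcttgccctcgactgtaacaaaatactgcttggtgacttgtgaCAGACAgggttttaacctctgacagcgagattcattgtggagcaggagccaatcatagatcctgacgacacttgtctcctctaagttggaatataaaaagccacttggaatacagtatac
Gdf11, chr10:128891719-128891968, minus strand: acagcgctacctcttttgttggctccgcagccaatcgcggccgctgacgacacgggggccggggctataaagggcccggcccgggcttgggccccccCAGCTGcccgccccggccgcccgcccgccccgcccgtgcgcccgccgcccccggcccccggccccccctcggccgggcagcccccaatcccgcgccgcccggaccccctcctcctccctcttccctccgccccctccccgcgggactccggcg
Fstl3, chr10:79777024-79777273, plus strand: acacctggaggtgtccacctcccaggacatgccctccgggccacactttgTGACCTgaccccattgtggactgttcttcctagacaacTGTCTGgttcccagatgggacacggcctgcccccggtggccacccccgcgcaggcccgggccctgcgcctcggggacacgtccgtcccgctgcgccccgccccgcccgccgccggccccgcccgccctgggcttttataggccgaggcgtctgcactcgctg
Acvr2b, chr9:119401928-119402177, plus strand: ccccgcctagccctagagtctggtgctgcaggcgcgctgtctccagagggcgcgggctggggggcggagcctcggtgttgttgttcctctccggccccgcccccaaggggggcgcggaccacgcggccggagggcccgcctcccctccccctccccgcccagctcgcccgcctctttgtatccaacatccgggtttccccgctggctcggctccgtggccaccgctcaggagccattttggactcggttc
The search covered both strands and 300 bases per gene, from 250 before to 50 after the start, for 7 of the 9 genes. Fst was not in the promoter table used and Smad7 was not searched. The short Smad element CAGACA was found at Mstn, starting 120 bases before the start, and at Fstl3 as its reverse complement TGTCTG. It occurs in 21.0% of the 32851 promoter windows of RefSeq. The myogenic E-box CAGCTG was found at Gdf11 (16.3% of windows), and the nuclear receptor half-site AGGTCA at Fstl3 as its reverse complement TGACCT (16.3% of windows). The E-box CACGTG (7.15% of windows) and the FoxO element GTAAACA (3.65% of windows) were found at none of the 7. A match describes these letters and is not evidence of binding. The Mstn window is poor in G and C (38.4%), while those of Gdf11, Fstl3 and Acvr2b hold 81.2%, 71.2% and 72.8%.

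Recovered totals ran from 28173234 to 36183625 reads per library. Levels are given as CPM, counts scaled to a library of 1000000 reads, and tests ran on log2(CPM + 1), which understates the change of genes at low levels. All 9 genes passed the filter of a mean of 1 CPM, as did 12025 genes in all. Fast-fibre markers were abundant in every library, with a summed level of 84507 to 190110 CPM over 8 genes. Slow-fibre markers (6 genes) varied far more, from 48.8 to 4018 CPM in sum, and in DRF ZT20 alone from 48.8 to 3463 CPM. None of the markers tested in the 11 lists was at 0 in every library. Nothing in the labels says which libraries came from separate animals, so p-values measure the spread between these samples. In bulk tissue, fewer cells of a type and less RNA per cell cannot be told apart.

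Per kilobase of transcript, Mstn had the highest mean level, at 36.4 ± 13.1 CPM per kb (SD over 56 libraries). Mss51 followed at 31.2 ± 21.4, Fstl1 at 18.2 ± 5.64, Acvr2b at 10.9 ± 2.39 and Acvr2a at 6.58 ± 1.79 CPM per kb. Smad7 (1.76 ± 0.432), Fst (1.34 ± 0.326), Gdf11 (0.923 ± 0.291) and Fstl3 (0.806 ± 0.218 CPM per kb) formed a lower tier. Neighbours in this order often changed places between libraries: Mstn exceeded Mss51 in 36 of 56 libraries, Mss51 exceeded Fstl1 in 33, and Gdf11 exceeded Fstl3 in 35. Smad7 exceeded Fst in 42 and Fst exceeded Gdf11 in 45. Fstl1 exceeded Acvr2b in 51, Acvr2b exceeded Acvr2a in 52, and Acvr2a exceeded Smad7 in 55. Myostatin transcript thus stood above that of Gdf11 in this muscle, and the type II receptor Acvr2b stood above Acvr2a.

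**Figure D1:**
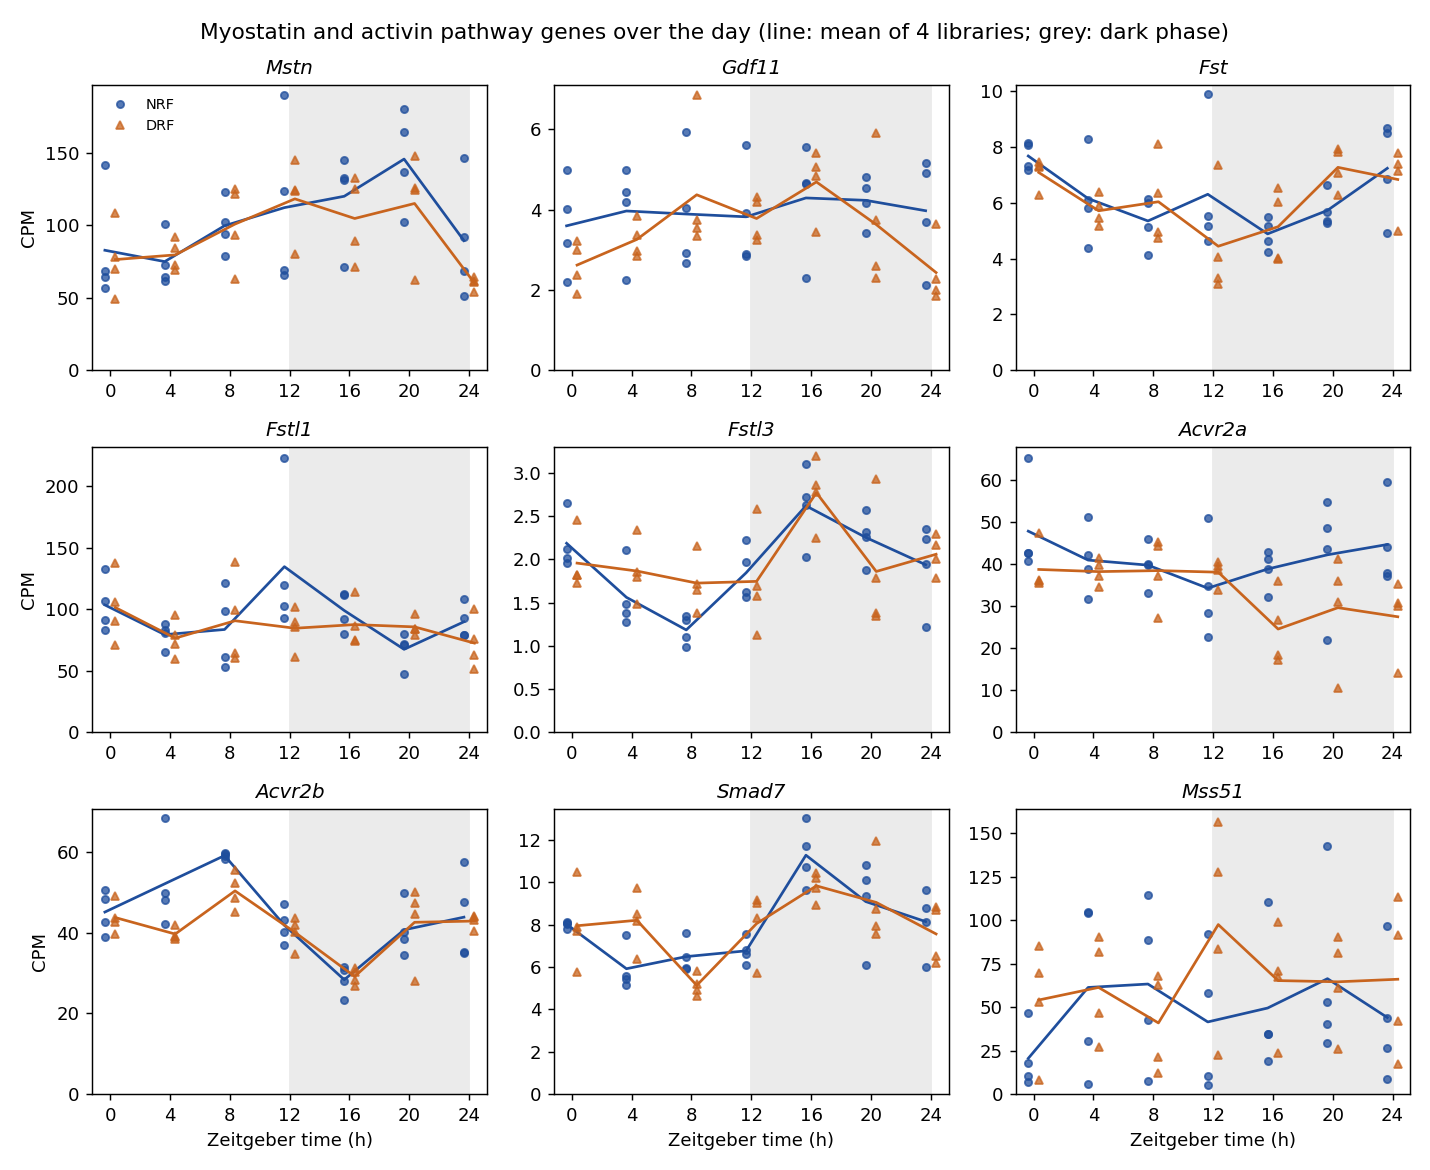
Level of each of the 9 genes (y axis, CPM) against zeitgeber time (x axis, h) under NRF (blue circles) and DRF (orange triangles). Each point is 1 library, lines join the means of 4 libraries, and grey marks the dark phase. Acvr2b was lowest and Fstl3 and Smad7 were highest at ZT16 in both regimens, while Mss51 spread from 5.53 to 156 CPM.

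The first question was which of these genes followed a 24 h rhythm under each feeding time. In NRF 3 of the 9 passed the cosine test (limma, Benjamini-Hochberg adjusted p under 0.05), against 15.1% of all genes tested: Fstl3, Acvr2b and Smad7. At an unadjusted p under 0.05 there were 5, these 3 with Mstn and Fst. In DRF 6 of the 9 passed, against 48.7% of all genes: Mstn, Gdf11, Fst, Acvr2a, Acvr2b and Smad7. In DRF a large share of all genes passed too, and no test set the count of 6 apart from it. In the paragraphs on single genes that follow, groups said not to overlap hold the highest and lowest of the 7 means in a regimen. They were picked from the same values, so their not overlapping is a description. The share of all genes whose highest and lowest groups do not overlap was not computed.

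Mstn, the myostatin gene itself, was lowest around lights on and higher from the end of the light phase into the dark. In NRF it stood at 64.7, 72.7, 101 and 61.7 CPM at ZT4 and at 180, 102, 164 and 137 CPM at ZT20, and the groups did not overlap. In DRF it stood at 145, 80.2, 124 and 124 CPM at ZT12 and at 64.2, 61.8, 60.6 and 54.3 CPM at ZT24, also without overlap. The ZT0 libraries of the same regimen ran from 48.9 to 108 CPM, and overlapped those of ZT12. In DRF the cosine swung by 0.74 ± 0.23 log2 units from peak to trough, with a peak at ZT13.6 ± 1.28 h (limma adjusted p = 0.0214). In NRF it was 0.76 ± 0.25 with a peak at ZT16.2 ± 1.15 h, a size like that in DRF that missed the threshold (limma adjusted p = 0.0689). Without NRF ZT0 replicate 1, ZT4 replicate 3, ZT8 replicate 1, ZT12 replicate 1 or 2, ZT16 replicate 1 or ZT24 replicate 4 the NRF value passed (lowest 0.0206). Without the ZT24 libraries the DRF value no longer passed (0.139), nor with the slow-fibre marker level as a covariate (0.155).

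Gdf11, the closest relative of myostatin, changed by time in DRF alone by the cosine test. It stood at 1.996, 3.63, 1.84 and 2.26 CPM at ZT24 and at 4.83, 3.44, 5.05 and 5.42 CPM at ZT16, groups that overlapped by 1 library. The fit in DRF gave 0.59 ± 0.17 log2 units and a peak at ZT12.7 ± 1.22 h (limma adjusted p = 0.0124), and it no longer passed without the ZT24 libraries (0.0759) or with the slow-fibre covariate (0.0514). In NRF the group means lay between 3.59 ± 1.19 (SD, n = 4) and 4.29 ± 1.40 CPM, and the fit gave 0.13 ± 0.19 (limma adjusted p = 0.894). The difference between regimens did not pass (0.219), so a rhythm particular to DRF was not shown.

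Fst, encoding follistatin, ran low at the end of the light phase in DRF and high around lights on in both regimens. In DRF it stood at 4.04, 7.35, 3.30 and 3.09 CPM at ZT12 and at 7.94, 7.06, 7.83 and 6.28 CPM at ZT20. Replicate 2 at ZT12 (7.35 CPM) lay among the ZT20 values and the other 3 lay below all of them. In NRF it stood at 8.15, 8.07, 7.18 and 7.32 CPM at ZT0 and at 5.50, 4.23, 5.18 and 4.65 CPM at ZT16, without overlap. The DRF fit gave 0.52 ± 0.14 log2 units and a peak at ZT23.6 ± 1.14 h (limma adjusted p = 0.00675). The NRF fit gave 0.36 ± 0.14 and ZT1.04 ± 1.63 h (limma adjusted p = 0.164), and passed without NRF ZT12 replicate 3, a library at 9.89 CPM (0.0163). In DRF the fitted peaks of the antagonist Fst and of its ligand Mstn thus fell at ZT23.6 and ZT13.6.

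Fstl3, a secreted binder of activin and myostatin, was highest in the dark phase. In NRF it rose from 1.30, 0.990, 1.35 and 1.10 CPM at ZT8 to 2.03, 2.63, 3.10 and 2.72 CPM at ZT16, without overlap. In DRF it stood at 1.72, 1.38, 2.16 and 1.65 CPM at ZT8 and at 3.19, 2.86, 2.78 and 2.25 CPM at ZT16, again without overlap. The ratio of means was 2.21 in NRF and 1.61 in DRF. In NRF the fit gave 0.63 ± 0.12 log2 units and a peak at ZT18.7 ± 0.665 h (limma adjusted p = 0.000544). In DRF it gave 0.26 ± 0.12 and ZT18.0 ± 1.63 h, which missed the threshold (limma adjusted p = 0.189). The difference in peak-to-trough, DRF minus NRF, was -0.38 log2 units with an unadjusted 95% interval of -0.73 to -0.02, and the adjusted test of the whole rhythm on clock time did not pass (0.259).

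Acvr2b, the type II receptor with the highest affinity for myostatin, was high in the light phase and low early in the dark. In NRF it stood at 59.7, 59.1, 58.2 and 59.6 CPM at ZT8 and at 31.4, 23.4, 30.7 and 27.9 CPM at ZT16. In DRF it stood at 48.7, 52.2, 45.1 and 55.5 CPM at ZT8 and at 28.2, 26.8, 30.3 and 31.4 CPM at ZT16. The groups at these times did not overlap in either regimen, and the ratio of means was 2.08 in NRF and 1.73 in DRF. The cosine swung by 0.81 ± 0.14 log2 units (SE) from peak to trough in NRF, with a peak at ZT5.39 ± 0.568 h (limma adjusted p = 4.54e-05). In DRF it was 0.43 ± 0.13 with a peak at ZT4.66 ± 1.08 h (limma adjusted p = 0.0228). The DRF call ended without replicate 1, 2 or 3 of ZT16 (adjusted p up to 0.0731), and with library weights (0.149). The trough at ZT16 was brief, with means of 40.7 ± 6.53 (SD, n = 4) in NRF and 42.6 ± 9.94 CPM in DRF at ZT20, so a single cosine describes its shape in part.

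Acvr2a, the other type II receptor, was level through the DRF light phase and lower in the dark. It stood at 38.6, 33.8, 39.5 and 40.5 CPM at ZT12 and at 26.6, 17.3, 18.3 and 36.0 CPM at ZT16 in DRF. In NRF the ZT16 libraries stood at 32.2, 39.0, 42.9 and 41.3 CPM, overlapping the DRF range by 1 library of each regimen. The DRF fit gave 0.68 ± 0.22 log2 units and a peak at ZT6.52 ± 1.11 h (limma adjusted p = 0.0327). It no longer passed without ZT8 replicate 2 or 4, ZT16 replicate 2 or 3, or ZT20 replicate 1 of DRF (up to 0.137), with library weights (0.0786) or with a 12 h harmonic added (0.0996). The NRF fit gave 0.35 ± 0.20 and missed the threshold (limma adjusted p = 0.466).

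Smad7 (17131), the inhibitory Smad, was high when Acvr2b was low. In NRF it stood at 5.15, 7.54, 5.42 and 5.59 CPM at ZT4 and at 11.7, 13.0, 10.7 and 9.63 CPM at ZT16. In DRF its lowest group was ZT8, at 5.19, 4.65, 5.80 and 4.91 CPM, and its highest ZT16, at 10.2, 8.94, 9.74 and 10.4 CPM. Lowest and highest groups did not overlap in either regimen, with ratios of means of 1.90 and 1.91. The cosine fit gave 0.72 ± 0.14 log2 units and a peak at ZT18.2 ± 0.656 h in NRF (limma adjusted p = 0.0005). In DRF it gave 0.55 ± 0.14 and ZT18.6 ± 0.858 h (limma adjusted p = 0.00485).

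Fstl1, a secreted glycoprotein of the follistatin family made mainly by connective tissue cells, and Mss51 passed the cosine test in neither regimen. Fstl1 ran from 47.3 to 223 CPM over all libraries, with limma adjusted p of 0.542 in NRF and 0.882 in DRF. At NRF ZT12 it stood at 103, 120, 223 and 92.6 CPM and at NRF ZT20 at 71.9, 47.3, 70.8 and 79.5 CPM, without overlap. Mss51, a muscle gene first described through its response to myostatin blockade, ran from 5.53 to 156 CPM, a 28.2-fold range. Its 4 libraries at NRF ZT8 stood at 88.8, 114, 42.7 and 7.36 CPM. Within groups its SD was 1.29 log2 units, against a median of 0.165 over all genes tested and 0.45 for Mstn, and ranked 10 of 12025 genes. The limma adjusted p for its rhythm was 0.943 in NRF and 0.739 in DRF. So wide a spread limits what these tests could detect, and the smallest detectable change was not tested.

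**Figure D2:**
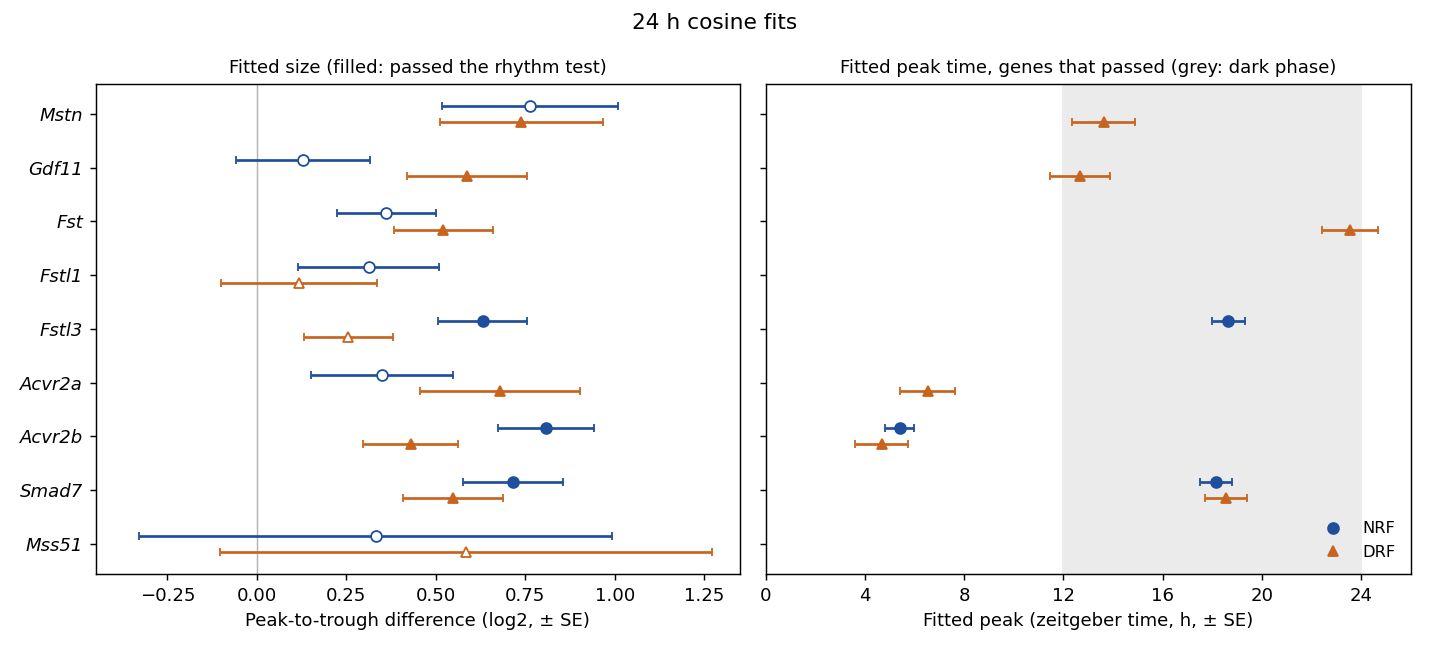
Fitted peak-to-trough difference of each gene (left, log2 units) and fitted peak time of those that passed the rhythm test (right, zeitgeber time in h), with SE, in NRF (blue circles) and DRF (orange triangles). Filled symbols mark adjusted p under 0.05. Acvr2b peaked at ZT5.39 and ZT4.66 and Smad7 at ZT18.2 and ZT18.6 in NRF and DRF.

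Feeding was inverted by 12 h between regimens, so 2 tests asked whether each rhythm kept to the light cycle or to the food. A difference on clock time passed for 0 of the 9 genes (limma; 13.1% of all genes), and 1, Acvr2a, had an unadjusted p under 0.05. On food time, with DRF shifted by 12 h, 5 of the 9 differed (45.8% of all genes): Mstn (limma adjusted p = 0.00252), Fst (0.00147), Fstl3 (0.000309), Acvr2b (4.51e-06) and Smad7 (5.3e-06). The peak of Acvr2b came 0.73 h earlier in DRF than in NRF, with a 95% interval of -3.17 to 1.72 h. The peak of Smad7 differed by 0.40 h (-1.76 to 2.57 h), and that of Fstl3 by -0.68 h (-4.22 to 2.85 h). For Mstn the difference was -2.57 h (-6.02 to 0.88 h) and for Fst -1.47 h (-5.46 to 2.51 h). These intervals leave out a shift of 12 h for all 5 and still allow shifts of 2 h or more. For Fstl3 the DRF rhythm had not passed, and for Mstn and Fst the NRF rhythm had not. Their peak differences are therefore less certain than those of Acvr2b and Smad7, which passed in both regimens. The food-time test can also pass where a rhythm is present in a single regimen. Acvr2a differed by 6.23 h (0.84 to 11.6 h), with an NRF rhythm that had not passed. With library weights the clock-time difference passed for Fstl3 (0.0449) and Acvr2a (0.0491), and with 2 within-group components for Gdf11 (0.0223) and Acvr2a (0.00118). Gdf11 missed the food-time threshold (0.0644) and passed without any 1 of 8 libraries (lowest 0.0292): DRF ZT12 replicate 3 or 4, DRF ZT20 replicate 2, NRF ZT4 replicate 3, NRF ZT12 replicate 1 or 2, NRF ZT16 replicate 1 or NRF ZT24 replicate 4.

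A test free of the cosine shape asked whether the 7 group means differed. In NRF 3 of the 9 passed (19.7% of all genes), again Fstl3 (limma adjusted p = 0.00231), Acvr2b (6.46e-06) and Smad7 (0.000675). In DRF 4 of the 9 passed (47.2% of all genes): Fst (0.0211), Fstl3 (0.0485), Acvr2b (0.00113) and Smad7 (0.00124). The Fst call ended without DRF ZT12 replicate 3 or 4 (up to 0.0809), and that of Fstl3 ended without any 1 of 40 of the 56 libraries (up to 0.184). The Fstl3 call also ended on log2(CPM + 0.25) (0.056), with no filter (0.0616), on the deposited value (0.0718) and when scaled by recovered totals (0.197). In DRF, Mstn (0.0724), Gdf11 (0.0621) and Acvr2a (0.0715) missed the threshold. Mstn passed without DRF ZT0 replicate 1, ZT8 replicate 3, ZT12 replicate 2 or ZT20 replicate 1, or NRF ZT12 replicate 4 (lowest 0.0242). Gdf11 passed without DRF ZT16 replicate 2, ZT20 replicate 1 or 2 or ZT24 replicate 2, or NRF ZT4 replicate 1, ZT16 replicate 1 or ZT24 replicate 2 (lowest 0.0312). Acvr2a passed without DRF ZT8 replicate 3, ZT16 replicate 4, ZT20 replicate 1 or 2 or ZT24 replicate 2, or NRF ZT20 replicate 4 (lowest 0.0322). Fstl1 in NRF (0.0709) passed without DRF ZT8 replicate 3, NRF ZT8 replicate 3 or NRF ZT12 replicate 4 (lowest 0.0335).

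The end of the light phase (ZT12) was also set against the end of the dark phase (mean of ZT0 and ZT24), which are the end and the start of the fed phase in DRF and the reverse in NRF. In DRF 2 of the 9 genes differed (20.5% of all genes). Mstn was higher at ZT12 by 0.79 ± 0.27 log2 units (SE, limma adjusted p = 0.0293), and Fst was lower there by 0.60, a difference of -0.60 ± 0.16 (limma adjusted p = 0.0057). Without DRF ZT0 replicate 3 or ZT12 replicate 1, 3 or 4 the Mstn call ended (up to 0.123), and without ZT12 replicate 4 that of Fst (0.0571). In NRF 0 of the 9 differed (limma; 9.79% of all genes), with none at an unadjusted p under 0.05, and the values were 0.34 ± 0.27 for Mstn and -0.25 ± 0.16 for Fst. The contrast itself did not differ between regimens for either gene (limma adjusted p = 0.514 and 0.364), nor for any of the 9 (8.53% of all genes); Acvr2a alone had an unadjusted p under 0.05. ZT24 did not differ from ZT0 for any of the 9 in either regimen (limma, none at an unadjusted p under 0.05; 0.00% of all genes in NRF and 0.274% in DRF).

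The next comparison took the mean level over the day. It differed between regimens for 0 of the 9 genes (limma; 15.9% of all genes), and 1, Acvr2a, had an unadjusted p under 0.05. Acvr2a was -0.29 ± 0.11 log2 units in DRF relative to NRF, with a 95% interval of -0.50 to -0.07 (limma adjusted p = 0.0631). It passed without DRF ZT16 replicate 4, DRF ZT20 replicate 2 or 3, NRF ZT12 replicate 2 or NRF ZT20 replicate 4 (lowest 0.0179), and when libraries were scaled by their recovered totals (0.0103). For Mstn the difference was -0.09 ± 0.12 (-0.34 to 0.15), for Fst -0.02 ± 0.07 (-0.16 to 0.13) and for Smad7 0.02 ± 0.06 (-0.10 to 0.13). Acvr2b differed by -0.10 ± 0.05 (-0.20 to 0.01), and passed when scaled by recovered totals (0.0209). The interval for Mss51, 0.57 ± 0.34 (-0.12 to 1.25), was too wide to place it.

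At single times 0 of the 9 genes differed between regimens by limma, and the counts at an unadjusted p under 0.05 were 0, 2, 1, 2, 1, 1 and 2 from ZT0 to ZT24. The adjusted background was 1.85% of all genes at ZT0, 0.973% at ZT4, 0.208% at ZT8, 3.50% at ZT12, 10.8% at ZT16, 2.96% at ZT20 and 5.56% at ZT24. The 4 libraries of each regimen did not overlap in 5 cases, and in none at ZT0, ZT12, ZT16 and ZT20, where 7.98%, 10.5%, 18.3% and 6.18% of all genes did not. At ZT8, where 4.65% of all genes did not overlap, Fstl3 was above in DRF, and Acvr2b and Smad7 were above in NRF. At ZT4 (9.72%) Acvr2b was above in NRF, with DRF at 39.3, 38.4, 42.0 and 39.1 CPM and NRF at 68.4, 42.3, 49.8 and 48.0 CPM. At ZT24 (12.2%) Acvr2a was above in NRF, at 44.1, 38.0, 37.2 and 59.4 CPM against 29.9, 35.2, 30.8 and 14.05 CPM in DRF. The difference of Acvr2a was -0.69 ± 0.28 log2 units at ZT16 (limma adjusted p = 0.0921) and -0.73 ± 0.28 at ZT24 (0.107). The first passed without DRF ZT16 replicate 4 or DRF ZT20 replicate 1 (lowest 0.0322), the second without DRF ZT20 replicate 1 (0.0445). Fst at ZT12 (0.156) passed without DRF ZT12 replicate 2 (0.0263).

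Libraries of the same group differed in ways that these genes shared. Over the 56 libraries, deviations from the group mean were correlated for 36 pairs of the 9 genes, with p-values from 100000 permutations within groups, and 9 pairs passed by both coefficients after Benjamini-Hochberg adjustment. Mstn rose and fell with Acvr2a (Pearson r = 0.67, permutation p = 2e-05, adjusted 0.00024; Spearman rho = 0.73, p = 1e-05, the smallest these permutations can give, adjusted 0.00036). Without the 2 libraries farthest from the Mstn median, r was 0.61. Mstn also moved with Gdf11 (r = 0.63, permutation p = 2e-05, adjusted 0.00024; rho = 0.58, p = 0.00011, adjusted 0.00132; r = 0.59 without the farthest 2) and with Mss51. The latter pair had r = 0.63 (permutation p = 2e-05, adjusted 0.00024), rho = 0.61 (p = 6e-05, adjusted 0.00108) and r = 0.64 without the farthest 2. Acvr2a moved with Gdf11 (r = 0.49, rho = 0.49, permutation p = 0.0012 and 0.00096, adjusted 0.00617 and 0.00576) and with Mss51 (r = 0.43, rho = 0.48, permutation p = 0.00111 and 0.00074, adjusted 0.00617 and 0.00533). Without the farthest 2 these r were 0.49 and 0.46. Gdf11 and Mss51 did not pass by both coefficients (r = 0.38, rho = 0.37, permutation p = 0.0151 and 0.017, adjusted 0.0495 and 0.0612). Fst moved with Fstl1 (r = 0.42, rho = 0.38, permutation p = 0.00937 and 0.0122, adjusted 0.0375 and 0.049), with r = 0.31 without the farthest 2.

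Acvr2b, Fstl3 and Smad7 formed a second set, with the signs of their rhythms. Fstl3 moved against Acvr2b (r = -0.64, permutation p = 0.00011, adjusted 0.00099; rho = -0.52, p = 0.00033, adjusted 0.00297; r = -0.55 without the farthest 2). Fstl3 moved with Smad7 (r = 0.52, permutation p = 0.00108, adjusted 0.00617; rho = 0.44, p = 0.00323, adjusted 0.0166; r = 0.45 without the farthest 2). Acvr2b moved against Smad7 (r = -0.46, permutation p = 0.00481, adjusted 0.0216; rho = -0.38, p = 0.0113, adjusted 0.049), with r = -0.33 without the farthest 2. These relations lie between libraries taken at the same time under the same regimen.

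**Figure D3:**
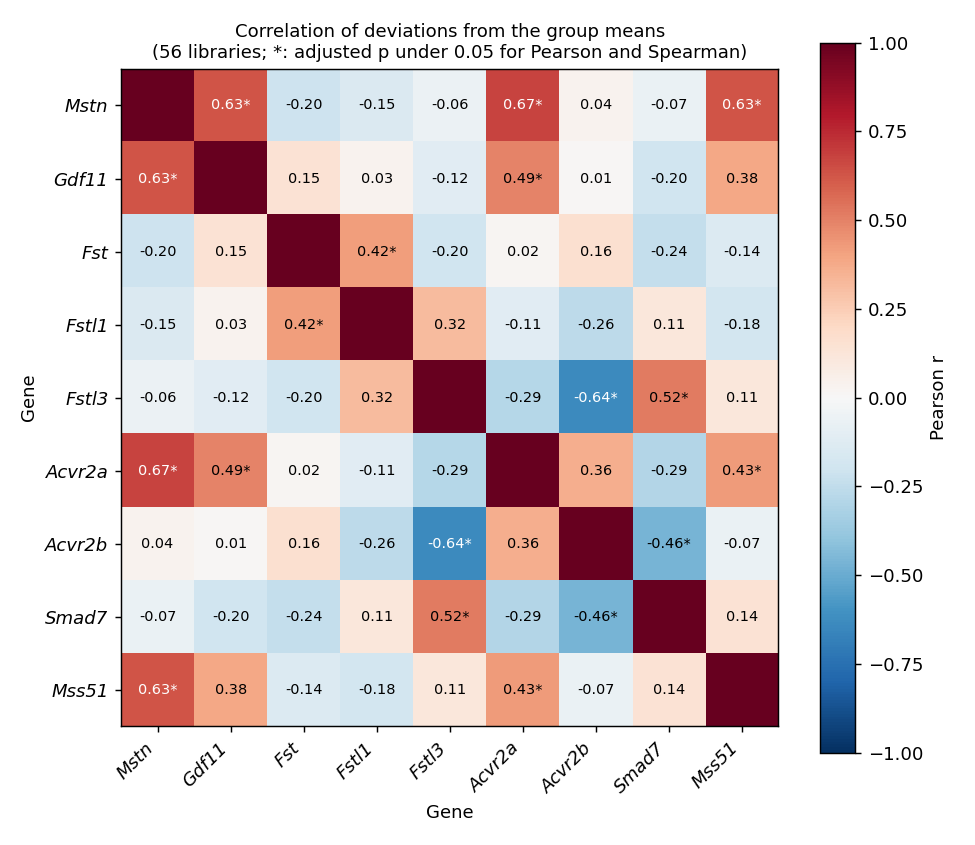
Pearson r between deviations from the group mean for each pair of the 9 genes over 56 libraries (red positive, blue negative). Asterisks mark the 9 pairs with adjusted p under 0.05 by both coefficients. Mstn, Gdf11, Acvr2a and Mss51 form 1 set, in which the pair of Gdf11 and Mss51 did not pass. Fstl3 and Smad7 against Acvr2b form another.

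The slow-fibre and endothelial scores moved against the first set (Mstn, Gdf11, Acvr2a and Mss51), and the fibroblast score moved with Fstl1. Relations of the 9 genes to 11 marker lists and a gene-length trend gave 108 tests, of which 17 passed by both coefficients. The slow-fibre score ran against Mstn (r = -0.74, permutation p = 1e-05, adjusted 0.000154; rho = -0.80, p = 1e-05, adjusted 0.00018; r = -0.77 without the farthest 2 libraries). It ran likewise against Gdf11 (r = -0.75, rho = -0.72), Acvr2a (r = -0.66, rho = -0.72) and Mss51 (r = -0.51, rho = -0.60), and r was -0.72, -0.63 and -0.59 without the farthest 2. The adjusted permutation p of these was at most 0.00795. The endothelial score, with a summed level of 190 to 533 CPM over 6 genes, ran against the same 4, from r = -0.61 for Acvr2a to -0.72 for Mstn (rho = -0.58 and -0.71). Fstl1 followed the fibroblast score (r = 0.88, permutation p = 1e-05, adjusted 0.000154; rho = 0.87, p = 1e-05, adjusted 0.00018; r = 0.85 without the farthest 2), whose 8 genes summed to 1500 to 5758 CPM. It followed the macrophage score almost as closely (r = 0.83, rho = 0.82, adjusted permutation p = 0.000154 and 0.00018; r = 0.78 without the farthest 2), and ran against the fast-fibre score (r = -0.40, rho = -0.40, adjusted 0.0465 and 0.0424). Fst followed the fibroblast score less closely (r = 0.49, rho = 0.41, adjusted permutation p = 0.0125 and 0.0424). Acvr2a ran against the fast-fibre score as well (r = -0.49, rho = -0.43, adjusted permutation p = 0.0125 and 0.0391) and against the tendon score (r = -0.42, rho = -0.39, adjusted 0.0199 and 0.0424). Gdf11 ran against the red blood cell score (r = -0.41, rho = -0.43, adjusted permutation p = 0.0215 and 0.0292). Acvr2b and Acvr2a followed the gene-length trend (r = 0.57 and 0.53, rho = 0.51 and 0.43). Fstl3 and Smad7 ran against that trend without passing (r = -0.40 and -0.38, adjusted permutation p = 0.0839 and 0.0874). The part of the trend in the rhythms of these genes, and in the pairs of the second set, was not tested.

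**Figure D4:**
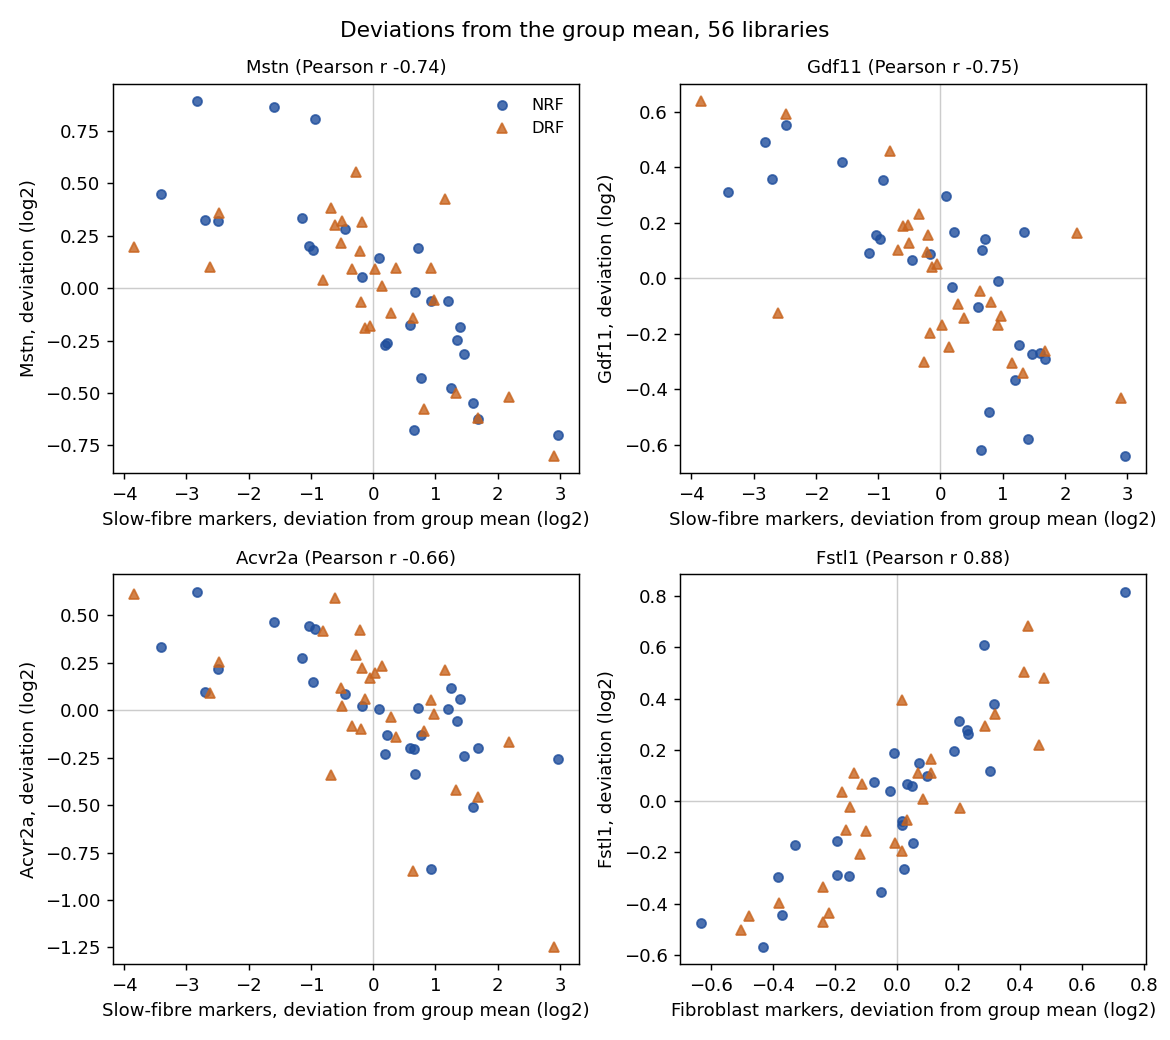
Deviation of a gene from its group mean (y axis, log2) against that of a marker score (x axis, mean log2 level of the slow-fibre or fibroblast markers) in 56 libraries, NRF as blue circles and DRF as orange triangles. Mstn, Gdf11 and Acvr2a fell as slow-fibre markers rose (r = -0.74, -0.75 and -0.66), and Fstl1 rose with fibroblast markers (r = 0.88).

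The median slow-fibre level also differed between times in both regimens, which is given as a description and was not tested. From ZT0 to ZT24 the median summed level of its markers was 1735, 2168, 1352, 676, 837, 737 and 2449 CPM in DRF. In NRF it was 2786, 2139, 1239, 1885, 526, 1581 and 2386 CPM. Libraries of the same group spread widely at some times, from 48.8 to 3463 CPM at DRF ZT20 and from 94.5 to 4018 CPM at NRF ZT16. At others they spread less, as from 1475 to 2682 CPM at DRF ZT4. With the slow-fibre score as a covariate, an alternative chosen after seeing the data, the DRF rhythm of Mstn no longer passed (limma adjusted p = 0.155), nor did its difference between ZT12 and the end of the dark (0.38 log2 units, 0.194). The DRF rhythm of Gdf11 fell just outside the threshold (0.0514), while its change over time in DRF passed (0.0193). Change over time in DRF also passed for Acvr2a (0.00156) and no longer for Fstl3 (0.0524), and in NRF it passed for Mstn (0.0155). The NRF rhythm of Mstn passed in that fit (0.0232), and so did the NRF rhythm of Acvr2a (0.0202), its average over the day (-0.28, 0.0139) and its difference between the ends of the phases in NRF (-0.64, 0.0163). Clock-time differences passed for Acvr2a (0.0175) and Gdf11 (0.0429) there, and Acvr2a passed on food time (0.000979). At single times Mstn at ZT20 (-0.65, 0.0452), Acvr2a at ZT20 (-0.79, 0.015) and ZT24 (-0.72, 0.025) and Gdf11 at ZT24 (-0.50, 0.0411) were lower in DRF. The rhythms of Acvr2b (0.0169 in DRF), Smad7 (0.00409 in DRF), Fstl3 (0.000503 in NRF), Fst (0.0123 in DRF) and Acvr2a (0.000612 in DRF) passed with and without the score.

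The authors' deposited table of rhythm tests called Fstl3 (adjusted p = 0.000472, phase 18.9 h), Acvr2b (0.00122, 5.93 h) and Smad7 (0.000877, 19.2 h) in NRF, the same 3 genes as above. For DRF the authors' deposited table called none of the 9, with Gdf11 (0.0628) and Mstn (0.0861) nearest; by its JTK column alone these 2 stood at adjusted p of 0.0352 and 0.0392. In the authors' deposited table Fst (adjusted p = 0.12), Smad7 (0.259), Acvr2a (0.696) and, farthest, Acvr2b lay farther from the threshold in DRF. Each of these had passed the DRF cosine test above. The share called in the authors' deposited table was 7.16% of 16119 genes in NRF and 15.9% in DRF.

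Other genes of the pathway were counted from 7 lists, of which 69 of 82 genes passed the filter on low values; the genes below it included the activin subunit Inhba and Gdf15. A rhythm passed for 24 of the 69 in NRF (34.8%, against 15.1% of all genes) and for 35 in DRF (50.7%, against 48.7%). The difference on clock time passed for 9 (13.0%, against 13.1% of all genes) and that on food time for 43 (62.3%, against 45.8%). Averages over the day differed for 7 (10.1%, against 15.9% of all genes), of which 3 were higher in DRF and 4 lower.

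Among ligands, 3 of 8 passed the rhythm test in NRF (15.1% of all genes) and 4 of 8 in DRF (48.7% of all genes). Their median peak-to-trough was 0.26 and 0.35 log2 units against 0.16 and 0.26 over all genes. No test set the count of any list apart from the share of all genes. The activin subunit Inhbb had 0.77 ± 0.17 in NRF and 1.31 ± 0.17 in DRF and peaked at ZT21.3 and ZT21.2, though at a mean of 2.25 CPM. Tgfb2 had a rhythm in DRF alone by the test (0.96 ± 0.15, limma adjusted p = 5.47e-06) and differed on clock time (0.0172), and Tgfb3 had the highest mean level, 41.7 CPM. Of 8 antagonists, 0 passed in NRF by limma (15.1% of all genes), with 2 at an unadjusted p under 0.05. In DRF 3 antagonists passed (48.7% of all genes), among them Wfikkn2 and Bambi. Dcn, a matrix proteoglycan that binds myostatin, was the highest antagonist at 550 CPM. Of 4 proteases Furin, which cleaves the myostatin precursor, passed in both regimens with peaks at ZT22.8 ± 0.838 h and ZT21.5 ± 0.734 h.

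Receptors passed in 5 of 11 cases in NRF (15.1% of all genes) and 7 of 11 in DRF (48.7% of all genes). Acvr1b, the type I partner of Acvr2b, had the largest swing of them, 1.10 ± 0.16 log2 units in NRF (limma adjusted p = 2.86e-06) and 1.04 ± 0.16 in DRF (5.98e-06). It peaked at ZT13.5 ± 0.610 h and ZT13.2 ± 0.651 h, after the peaks of Acvr2b at ZT5.39 and ZT4.66. The BMP receptor Bmpr2 was highest at 103 CPM, and Acvr1 differed on clock time (0.00198). Smads and their partners passed in 7 of 13 cases in each regimen, against 15.1% of all genes in NRF and 48.7% in DRF. Smad3, a signal carrier of the pathway with a mean of 117 CPM, had 0.69 ± 0.11 in NRF and 0.30 ± 0.12 in DRF and differed on clock time (limma adjusted p = 0.0065), while Smad2 had 0.31 ± 0.07 and 0.37 ± 0.07 with peaks at ZT8.90 and ZT8.75.

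Listed targets passed in 4 of 12 cases in NRF (15.1% of all genes) and 7 of 12 in DRF (48.7% of all genes). They had the largest median swing of the 7 lists, 0.55 and 0.86 log2 units. The muscle ubiquitin ligase Trim63 had 0.52 ± 0.20 in NRF and 1.64 ± 0.20 in DRF (clock-time difference, limma adjusted p = 0.0157), and its average was higher in DRF by 0.25 ± 0.08 (0.0318). Targets of this kind also answer to other signals. Growth regulators passed in 4 of 13 cases in NRF (15.1% of all genes) and 6 of 13 in DRF (48.7% of all genes). Igf1r, the receptor for insulin-like growth factor, had 0.46 ± 0.09 with a peak at ZT8.16 in NRF and 0.88 ± 0.09 with a peak at ZT3.51 in DRF (clock-time difference, limma adjusted p = 9.16e-06).

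The genes whose 14 group means ran most like each member were taken as a description, with no test. For Fstl1 they were the fibrillar collagens Col3a1 (r = 0.95) and Col5a2 (0.94). Acvr2b was most like Zmym3 (0.95), Fstl3 like Zbtb16 (0.93) and Atoh8 (0.89), and Smad7 like Atoh8 (0.87) and Upf3a (0.86). Mstn was most like Whrn (0.92) and Sumo2 (0.92), Gdf11 like Slc11a2 (0.90) and Gm41844 (0.89), and Fst like Nod2 (0.92) and Litaf (0.92). Acvr2a was most like Larp4b (0.95) and Nktr (0.95), and Mss51 like Parp3 (0.95) and Smim19 (0.91). Atoh8, a transcription factor, was the one gene named for 2 members, Fstl3 and Smad7.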

How the data were processed

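RNA was sequenced as 56 libraries of mouse gastrocnemius, 28 per feeding regimen. Aligners and counters named in the submitters' processing notes are HISAT2, RSEM and Bowtie2, and the builds are GRCm38.p6 and mm10; their versions and settings are not given in the sources used. The authors deposited a table headed TPM whose values are a score. Each column sums to 1000000, yet no value exceeds 1566, because the values follow a factor per library times log2(1 + reads per 1000000) divided by gene length. That formula was inverted for 17443 of 19072 genes. Among calibration genes, 96.7% of 6059 values of 3 reads or more came out whole within 1e-05 reads. The authors also deposited p-values, q-values, phases and amplitude scores of their rhythm tests, of which the amplitudes were not used.

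CPM was taken over the authors' library size, which was 0.854 to 1.21 of the recovered total. Because the file held a score and not TPM, limma (3.58.1, R 4.3.3) was run on log2(CPM + 1) with an intensity trend, over all 56 libraries and the 12025 genes with a mean of at least 1 CPM. Benjamini-Hochberg adjustment covered all of these genes. Rhythms were 24 h cosines per regimen, group means served the other tests, and the fit was tested on simulated data. In DRF, 11 of 100 rhythms set there at 0.5 log2 units from peak to trough were called, and 97 of 100 set at 1 log2 unit. With no rhythm set, 3 of 11825 were called. Smaller swings, and differences in rhythm between regimens, were not tested in this way. The members, gene lists and markers were chosen with earlier results of these data known. Named are all 9 members, of each pathway list at most 3 called genes per test by adjusted p and the gene at the highest mean level, and the 2 genes most like each member; a few results that this rule would name are not reported here. Alternatives changed the added constant, filter, scaling, unit, library weights, replicate block, 2 within-group components, a 12 h harmonic, the adjustment over times, and the libraries or times included. The slow-fibre score and the difference between regimens at the ends of the phases were added after seeing the data.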

Additional observations from a re-analysis of the deposited data

Results flagged for a closer look

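In 6 of the 126 groups of 4 libraries looked at, 1 library lay far from the other 3, and chance flags about 1 in 20 groups. Mstn stood at 71.0 CPM in NRF ZT16 replicate 1, against 132 to 145 CPM in the others. Gdf11 stood at 6.85 CPM in DRF ZT8 replicate 2, against 3.34 to 3.74 CPM. Fst stood at 6.30 CPM in DRF ZT0 replicate 1, against 7.29 to 7.45 CPM. Fstl3 stood at 2.46 CPM in DRF ZT0 replicate 3, against 1.72 to 1.82 CPM. Acvr2a stood at 47.3 CPM in DRF ZT0 replicate 1, against 35.6 to 36.2 CPM, and at 65.2 CPM in NRF ZT0 replicate 1, against 40.7 to 42.8 CPM.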

How the results depend on the processing

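The 171 results on the 9 genes gave 1539 values under 12 other ways of processing. Of these values, 54 changed their side of the threshold, 9 to no longer passing and 45 to passing, and 0 reversed. A result counts anew under each way that changed it. Below, weights are library weights, components are 2 within-group components and totals are scaling by recovered totals; the slow-fibre score is the covariate added after seeing the data. The cause of each change was not tested.

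Rhythms in NRF covered 1820 genes and 3 members, against 2837 with weights, 2950 with components and 2762 with a 12 h harmonic, and 5 members with each of these and with the slow-fibre score. Clock-time differences covered 1578 genes and 0 members, against 2687 with weights, 3610 with components and 1017 without ZT24, and 2 members with weights, components or the slow-fibre score. Change over time in NRF covered 2363 genes and 3 members, against 3858 and 5 with weights and 6273 and 6 with components. In DRF it covered 5672 genes and 4 members, against 8692 genes with components, and 7 members with weights or components. The average over the day covered 1909 genes and 0 members, against 3499 and 2 with totals and 4196 and 1 with components, and 1 member with weights or the slow-fibre score. Calls at single times were summed over the 7 times, so a gene counts once at each time it passed. There were 3103 calls over all genes and 0 among members. With weights these were 7425 and 3, with components 13022 and 4, and with the slow-fibre score 4932 and 4. Acvr2a counted at both ZT20 and ZT24 with the slow-fibre score. With totals there was 1 call among members. The ends of the phases in NRF covered 1177 genes and 0 members, against 2322 genes with components, and 1 member with weights, components or the slow-fibre score. In DRF they covered 2464 genes and 2 members, against 4508 genes with weights, 4660 and 4 with components, and 1 member with the slow-fibre score. Their difference covered 1026 genes and 0 members, against 2132 and 1 with weights and 2737 and 1 with components. ZT24 against ZT0 covered 0 genes in NRF, against 135 with weights and 406 with components. In DRF it covered 33, against 6 with totals, 85 with quantile scaling, 266 with weights, 2379 and 1 member with components and 86 with the slow-fibre score.

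With each library left out in turn, change over time in DRF covered 2 to 7 members (2 without DRF ZT12 replicate 3, 7 without DRF ZT20 replicate 1). The average covered 1269 to 2917 genes (without NRF ZT20 replicate 3 and 4) and 0 to 1 members. Calls summed over single times ran from 1891 to 4278 (without DRF ZT16 replicate 3 and NRF ZT20 replicate 4). Among members these calls ran from 0 to 2, the 2 being Acvr2a at ZT16 and at ZT24 without DRF ZT20 replicate 1. The ends of the phases in DRF covered 1538 to 2744 genes (without DRF ZT12 replicate 1 and ZT20 replicate 1) and 0 to 2 members, and ZT24 against ZT0 in DRF 0 to 245 genes (without DRF ZT0 replicate 4 and ZT20 replicate 1). Rhythms in DRF covered 4 to 6 members, in NRF 3 to 4.

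Replicate numbers are only names in the labels, and 13 of 28 pairs of same-numbered libraries had deviations correlated above 0.1 (median 0.064). With the replicate block 0 of 171 results on the 9 genes changed their call, and all 26 counts stayed within 1.5 times; rhythms in NRF were then called for 1760 genes.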

Other observations

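Within groups, Mss51 deviated most closely with Anxa7 (r = 0.89 over 56 libraries, chosen as the highest of all genes and given with no p). Anxa7, which encodes an annexin, lies beside it on chromosome 14 from 20455261 to 20480133 of GRCm38.p6 without overlapping it, and ran from 43.2 to 90.1 CPM where Mss51 ran from 5.53 to 156 CPM. Acvr2a deviated most closely with Stag2 (r = 0.94), a cohesin subunit gene on chromosome X, Fstl1 with Fbn1 (r = 0.94), the gene of the matrix protein fibrillin, and Mstn with Asph (r = 0.89). These points share libraries, depth and tissue makeup.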
